A study of Mus musculus with 3 samples.

Results

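The 9 genes described here encode interferon regulatory factors (Irf1, Irf2, Irf3, Irf5, Irf7 and Irf9) and signal transducers and activators of transcription (Stat2, Stat3 and Stat5a). They were taken by name from 21883 protein-coding genes, and their chromatin was read from every accessible region in a window made of the gene span and its flanks of 20 kb in mm10. A region in the windows of more than 1 gene was counted once. The windows held 134 of 182233 regions at 0 h, 142 of 178055 at 6 h and 144 of 145044 at 72 h.

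The assay was ATAC-seq, which marks open DNA by the insertion of a transposase, and the cells were ECOMG, a mouse line labelled as a myeloid progenitor. The libraries used came from cells with the genotype FKBP12F36V_NIPBL, in which the cohesin loader NIPBL carries a degron, grown with GM-CSF and estradiol. The 0 h cells had no dTAG, the small molecule that sends the tagged protein to degradation, whereas the 6 h and the 72 h cells had it; each library was made from 50000 cells. Each time is 1 library of 1 genotype, so differences between times have no replicate check and no test, and effects of dTAG, of time and of the single library cannot be told apart. The loss of NIPBL protein is not something these files can show.

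Interferon regulatory factors bind a shared DNA element, the interferon-stimulated response element (ISRE), through a conserved amino-terminal domain. STAT proteins wait in the cytoplasm, are phosphorylated by Janus kinases at an activated cytokine receptor, and as dimers bind gamma-activated sites (GAS). STAT2 and IRF9 act together to carry the type I interferon signal to ISREs, and IRF3 and IRF7 switch on the interferon genes themselves. In myeloid cells STAT5 proteins act below the GM-CSF receptor, and STAT3 acts below the receptors for G-CSF, interleukin 6 and interleukin 10.

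Each of the 9 genes had an accessible region within 1 kb of a start in all 3 libraries. The 250 bases before the start are shown for 4 of them: the 3 genes in which an ISRE or GAS core was found there, and Irf7, whose start region shifted most in rank. The sequences are from RefSeq (GRCm38.p6, the assembly of mm10), written 5′ to 3′ on the strand of the gene, and capitals mark the matches.
Irf1 chr11:53769764-53770013 (+ strand): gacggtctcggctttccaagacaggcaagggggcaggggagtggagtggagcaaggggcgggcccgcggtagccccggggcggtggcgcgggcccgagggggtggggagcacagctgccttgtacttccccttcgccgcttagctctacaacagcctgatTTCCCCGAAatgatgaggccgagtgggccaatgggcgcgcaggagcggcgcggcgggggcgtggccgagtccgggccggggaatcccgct
Irf2 chr8:46739495-46739744 (+ strand): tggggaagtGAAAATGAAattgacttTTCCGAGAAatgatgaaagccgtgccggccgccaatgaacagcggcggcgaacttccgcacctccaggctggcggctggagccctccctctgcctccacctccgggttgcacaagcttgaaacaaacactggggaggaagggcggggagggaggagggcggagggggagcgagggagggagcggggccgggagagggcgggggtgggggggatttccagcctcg
Stat2 chr10:128270248-128270497 (+ strand): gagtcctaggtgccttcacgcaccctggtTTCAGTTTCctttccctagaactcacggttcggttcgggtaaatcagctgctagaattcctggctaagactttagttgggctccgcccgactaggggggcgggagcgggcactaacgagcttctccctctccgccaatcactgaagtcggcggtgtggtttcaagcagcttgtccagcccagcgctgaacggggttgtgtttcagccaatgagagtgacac
Irf7 chr7:141266425-141266674 (- strand): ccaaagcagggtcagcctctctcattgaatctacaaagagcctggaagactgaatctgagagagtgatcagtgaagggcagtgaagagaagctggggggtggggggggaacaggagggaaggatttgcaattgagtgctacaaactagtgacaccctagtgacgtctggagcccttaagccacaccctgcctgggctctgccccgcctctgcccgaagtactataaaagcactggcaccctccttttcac

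The cores searched on both strands were GAAANNGAA, a shortened ISRE, and TTCNNNGAA, the GAS core. In Irf1 the GAS core TTCCCCGAA lay 90 to 82 bases before the start. In Irf2 the ISRE core GAAAATGAA lay at 241 to 233 and the GAS core TTCCGAGAA at 224 to 216 bases, with no overlap between them. In Stat2 the ISRE core was found on the opposite strand, as TTCAGTTTC, 221 to 213 bases before the start. An ISRE core of this form occurs in 7.13% and a GAS core in 7.02% of the 32851 promoter windows of this length, so single matches are common and describe the sequence only. The Irf1, Irf2 and Stat2 stretches were covered by listed regions over their full 250 bases at each time. The Irf7 stretch was covered over 175, 192 and 190 bases at 0, 6 and 72 h.

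Taken over all 9 windows the number of regions was much the same at each time, although the 72 h list is the shortest. Their 144 regions at 72 h against 134 at 0 h gave a ratio of 1.07 (0.843 to 1.37), while the regions in windows of all coding genes gave 0.839. The interval covers counting error only; it takes the 2 counts as if independent, which regions listed at both times are not. By gene, the 72 h count exceeded the 0 h count in 4 of 9, fell short of it in 4 and equalled it in 1. The shares over 19409 coding genes with a region at either time were 22.4% above, 65.7% below and 11.9% equal. The median change was 0 regions in the 9 genes and −1 over all coding genes. At 6 h against 0 h the ratio was 1.06 (0.831 to 1.35), against 0.981 over all coding windows. Then 5 of the 9 genes held more regions, 2 fewer and 2 as many, against 35.9%, 43.5% and 20.6% of 19627 coding genes. At 72 h against 6 h, 3 genes held more and 6 fewer, against 23.7% and 63.9% of 19299 coding genes, of which 12.4% held as many. With flanks of 50 kb the ratios of the 9 windows were 0.960 at 6 h and 0.949 at 72 h, below 1.

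**Figure D1:**
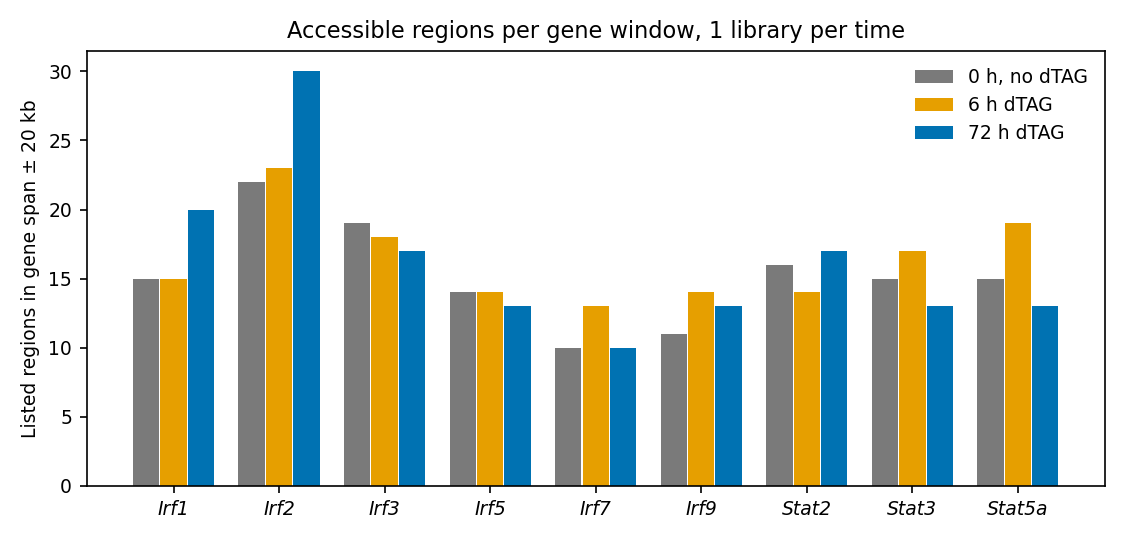
Number of listed regions in the window of each gene (span and flanks of 20 kb) at 0 h, 6 h and 72 h, 1 library per time, so the bars have no error. Irf2 has 22, 23 and 30 regions and Irf1 15, 15 and 20, while the other 7 genes differ by at most 2 between 72 h and 0 h.

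**Figure D2:**
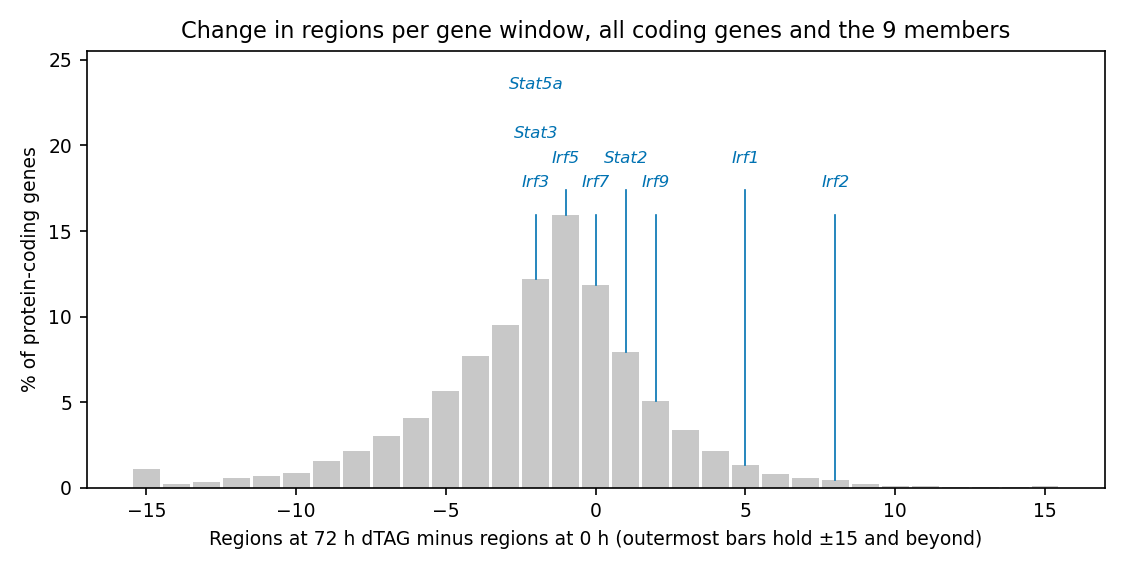
Change in the number of regions per window at 72 h minus 0 h; grey bars give the percent of 19409 coding genes at each value, and blue lines mark the 9 genes. Irf1 at 5 and Irf2 at 8 lie in the right tail, and the other 7 lie between −2 and 2. The median of the coding genes is −1, and 14.5% of them have a change of at least the 2 of Irf9.

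The 2 genes furthest from the middle form an antagonistic pair: IRF1 activates interferon-responsive genes, and IRF2 binds the same element and mostly represses them. The Irf2 window had 22 regions in the 0 h list, 23 in the 6 h list and 30 in the 72 h list, and 1.20% of coding genes had a change at 72 h at least as high as its 8. Irf1 held 15, 15 and 20 regions, and 3.91% of coding genes had a change of at least 5. For both genes the 6 h count was close to the 0 h count. Loci join overlapping regions of the 3 lists, so that pieces overlapping the same region count once. A separate region close by still counts as its own locus. Counted as loci, Irf2 held 20, 21 and 27 and Irf1 14, 15 and 18. With regions of a list within 100 bp merged, the change at 72 h was 8 for Irf2 and 5 for Irf1. Both remained above 0 h in each of 6 other settings, with a change of 7 to 12 for Irf2 and 2 to 7 for Irf1. The Irf2 span of 107714 bp is the longest of the 9, and that of Irf1 is 8361 bp. The shares of coding genes given here were not matched for window length.

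Of all 134 regions at 0 h, 26 had no overlap at 6 h, against 22.2% over all coding windows, and 34 had none at 72 h, against 37.1%. Of the 142 regions at 6 h, 35 had no overlap at 0 h, against 20.8%, and of the 144 at 72 h, 34 had none at 0 h, against 22.6%. Joined over the lists, the windows held 185 loci, of which 91, or 49.2%, were listed at all 3 times, against 43.5% of 188825 loci in all coding windows. Loci of a single list were 22 at 0 h, 24 at 6 h and 25 at 72 h, or 11.9%, 13.0% and 13.5%, against 14.1%, 11.5% and 10.5% of loci in all coding windows. By position, 57 of the loci lay inside a gene of the 9, 22 at its start, 51 between genes, 28 at the start of another coding gene and 27 inside one.

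Strong regions listed at 72 h without a counterpart at 0 h lay mostly at Irf1 and Irf2. Strong regions are those whose −log10 q is at or above the median of the list they come from. Of 79 strong regions at 72 h in the 9 windows, 9 had no overlapping region at 0 h, against 6.92% over all coding windows. Irf1 had 4 of them, Irf2 had 4 and Stat2 had 1, and all 9 lay over 1 kb from any coding gene end or start, a class in which 9 of 45 strong 72 h regions had no overlap at 0 h, against 8.95% over all coding windows. In the other direction, 1 of 80 strong regions at 0 h had no region overlapping it at 72 h, against 13.6% over all coding windows. The region without one, chr11:100843006-100843328, lay in the Stat5a window inside the neighbouring Stat5b, where its folds were 13.6 (0 h) and 11.3 (6 h). In the same distal class, 1 of 43 strong 0 h regions had no overlap at 72 h, against 15.8% over all coding windows, so that 97.7% (87.7 to 99.9) were overlapped. At 6 h, 1 of 80 strong 0 h regions was not overlapped, against 2.25%, and 0 of 79 strong 6 h regions lacked an overlap at 0 h, against 1.62%.

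Around Irf1 (chr11:53770014-53778374, plus strand) the accessible chromatin was organised in 3 tall regions, at −6.29 kb, at the start and at 24.6 kb. Heights are given as the fold of the summit over the background of the peak caller, which is comparable within a list only. To set times side by side, each locus held in all 3 lists was ranked by fold within each library among the same 98083 loci, from 0 (lowest) to 100 (highest). The start locus had folds of 105, 124 and 149 at 0, 6 and 72 h and ranks of 96.5, 96.5 and 97.1. The locus at −6.29 kb had folds of 85.4, 94.9 and 117 and ranks of 94.5, 94.0 and 94.8. The locus at 24.6 kb (chr11:53794630-53795530), beyond the end of the gene, had folds of 106, 151 and 238 and ranks of 96.6, 98.1 and 99.6. All 3 stood near the top of every library.

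The widest shifts around Irf1 were at lower loci. The locus at 13.0 kb (chr11:53783353-53783611) had folds of 12.1, 20.3 and 66.4 in time order. Its rank was 44.8, 62.0 and 87.1, the widest upward shift in the Irf1 window. The locus at −11.8 kb (chr11:53758115-53758329) went the other way, with folds of 24.9, 13.6 and 6.25 and ranks of 70.8, 46.9 and 19.5. At both loci the 6 h library lay between the others. The 4 strong regions without overlap at 0 h lay at −1.14 kb (fold 10.1), 5.51 kb inside the gene (14.8), 12.7 kb (11.7) and 25.6 kb (13.3). The last of these had a weak region of fold 5.27 at 6 h.

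**Figure D3:**
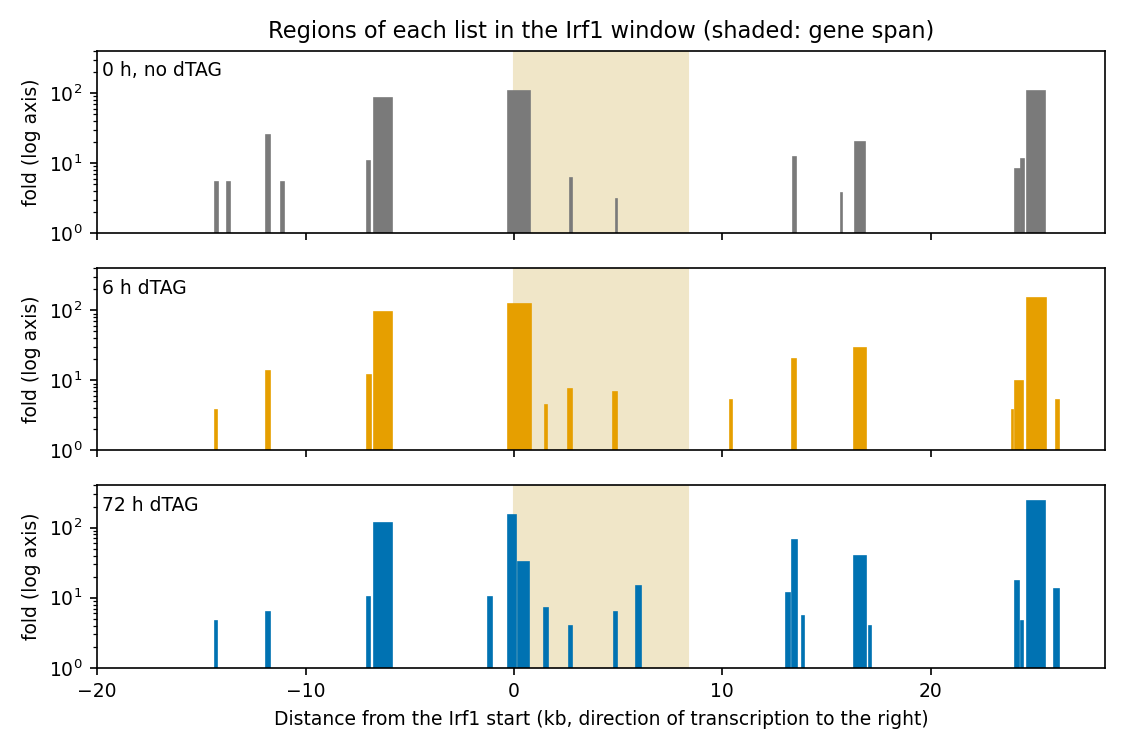
Regions in the Irf1 window at 0 h, 6 h and 72 h by distance from the start, with the fold of each region as bar height on a log axis and the gene span shaded. The region at 13.0 kb has folds of 12.1, 20.3 and 66.4, and the one at −11.8 kb has 24.9, 13.6 and 6.25.

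Irf2 (chr8:46739745-46847458, plus strand) had shifts in both directions within its long body. The start locus had folds of 95.2, 129 and 150 at 0, 6 and 72 h, and the broad locus 1.22 kb into the gene 49.9, 86.7 and 105, with ranks of 86.8, 92.9 and 93.4. A locus 53.1 kb into the gene (chr8:46792735-46793007) had folds of 20.4, 26.4 and 71.0 and ranks of 64.4, 70.3 and 88.2. Near the far end of the gene, the locus at 103 kb (chr8:46842744-46843116) had folds of 3.02, 4.52 and 20.3. At 0 h that fold was the lowest listed, and its rank was 0.484, against 60.3 at 72 h. In contrast, the locus at 26.9 kb (chr8:46766522-46766765) had folds of 18.9, 16.6 and 3.90 and ranks of 61.7, 54.7 and 4.21. The 4 strong regions without overlap at 0 h lay at −7.00 kb (fold 21.9), 5.93 kb (10.1), 52.1 kb (17.2) and 78.5 kb (10.9). Of these, 3 had a region below the strong cutoff at 6 h, with folds of 4.52, 3.77 and 6.78. Of the 14 Irf2 loci held in all 3 lists, 9 ranked higher and 5 lower at 72 h than at 0 h. Over such loci of all coding windows, 48.0% ranked higher.

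**Figure D4:**
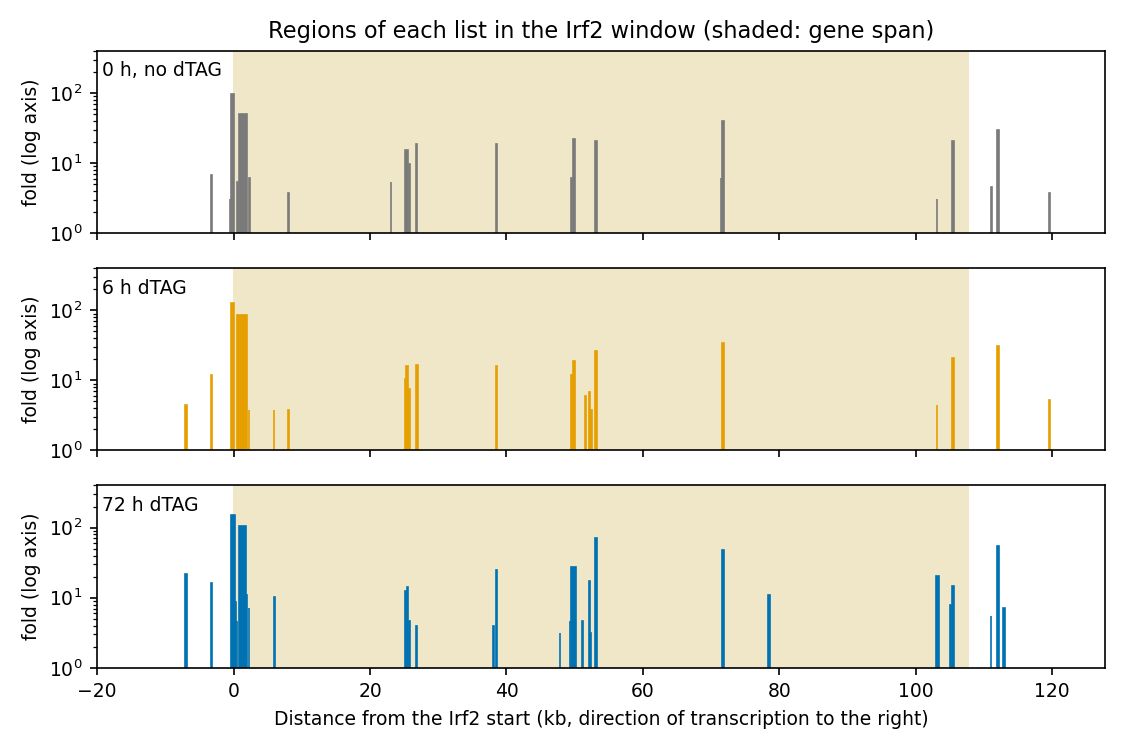
Regions in the Irf2 window at 0 h, 6 h and 72 h by distance from the start, with fold as bar height on a log axis and the gene span shaded. At 72 h bars stand at −7.00 kb, 52.1 kb and 78.5 kb where 0 h has none, and the bar at 26.9 kb is lower, at a fold of 3.90.

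Irf5, a factor that links Toll-like receptors to inflammatory cytokine genes, had 14, 14 and 13 regions at 0, 6 and 72 h. Of these, 3, 4 and 8 had a fold of at least 10. Over all coding windows, regions of such a fold were 55778 of 145657, 58390 of 142938 and 61751 of 122145. Folds compare within a list only, so a fold of 10 is not the same cutoff at each time. Of the 10 Irf5 loci held in all 3 lists, 8 had a higher rank at 72 h than at 0 h, and the median difference was 20.1 points. Over loci of all coding windows, 48.0% ranked higher and the median change was −0.572 points. The widest shifts, at −3.08 and −2.34 kb, lay upstream of the gene (chr6:29526130-29541869, plus strand). The locus at −3.08 kb (chr6:29523326-29523760) had folds of 5.29, 6.78 and 21.9 and ranks of 11.4, 18.0 and 62.6. The locus at −2.34 kb had folds of 8.32, 10.5 and 28.9 and ranks of 29.3, 36.4 and 70.1. At the start itself, the locus at 0.062 kb had folds of 9.07, 6.03 and 16.4 and ranks of 33.0, 13.6 and 53.7. A second start locus, at 0.39 kb, had folds of 5.29, 8.29 and 14.1 and ranks of 11.4, 26.2 and 48.7. The highest Irf5 start region lay in the second locus at 6 h and in the first at 0 and 72 h. Further out, the locus at −13.2 kb ranked 47.2, 51.1 and 66.3. The locus at −18.8 kb, within 1 kb of a start of the neighbouring Kcp, ranked 6.65, 0.366 and 28.0. Its folds were low, at 4.54, 3.01 and 7.81, the 6 h value being the lowest listed. The −3.08 kb, −2.34 kb and start loci stood in the lower part of the ranking at 0 h and 6 h and near its middle or above at 72 h. The tallest Irf5 loci, at 2.52 kb (ranks 85.4, 84.5 and 85.4) and −9.25 kb (81.9, 81.7 and 82.3), had nearly the same rank at each time.

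Over all 9 windows, 51 of 91 loci held in all 3 lists ranked higher at 72 h than at 0 h, against 48.0%, and the median difference was 0.476 points. At 6 h, 46 of the 91 ranked higher than at 0 h, against 50.4% over all coding windows, and the median change was 0.00306 points. The windows held 61, 63 and 79 regions with a fold of at least 10 at 0, 6 and 72 h, a ratio of 1.30 between 72 h and 0 h, against 1.11 over all coding windows. A fold of 10 is not the same cutoff in each list, since the median folds of the lists were 6.80, 7.54 and 9.37.

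Gene starts were ranked among themselves. The highest region within 1 kb of a start was ranked among 9881 genes that had one in all 3 libraries. At 72 h, 8 of the 9 genes ranked higher than at 0 h, against 52.7% of ranked genes, with a median change of 6.74 points against 0.425. At 6 h, 6 of the 9 ranked higher, against 50.6%, with a median change of 0.961 points against 0.0658. In the same ranking at 72 h against 0 h, 4 of 5 ranked progenitor markers stood lower, and 5 of 6 neutrophil and 3 of 3 macrophage markers stood higher; their part in the result was not tested. Having a start region in all 3 libraries was itself common, since 9881 of 17491 genes had one in each. Taken 1 library at a time, 61.5%, 61.2% and 57.5% of the 17491 genes had one at 0, 6 and 72 h.

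Irf7, the interferon-inducible master factor of the type I interferon response, had the widest start shift. Its start region (chr7:141265969-141266599 at 0 h, minus strand) had folds of 46.1, 86.7 and 76.5 at 0, 6 and 72 h. Among gene starts the ranks were 29.8, 53.6 and 45.6, so that both dTAG libraries stood above the 0 h library, the 6 h one highest. At 72 h the region was listed in 2 pieces. In the ranking of all shared loci, the start locus stood at 85.4, 92.9 and 89.3. In that ranking the locus at 0.818 kb stood at 11.4, 18.0 and 19.5, the one at 1.33 kb at 90.2, 87.2 and 77.9, and the one at −2.22 kb at 72.6, 78.9 and 84.5. The Irf7 window held 10, 13 and 10 regions, of which 5, 5 and 6 were strong.

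**Figure D5:**
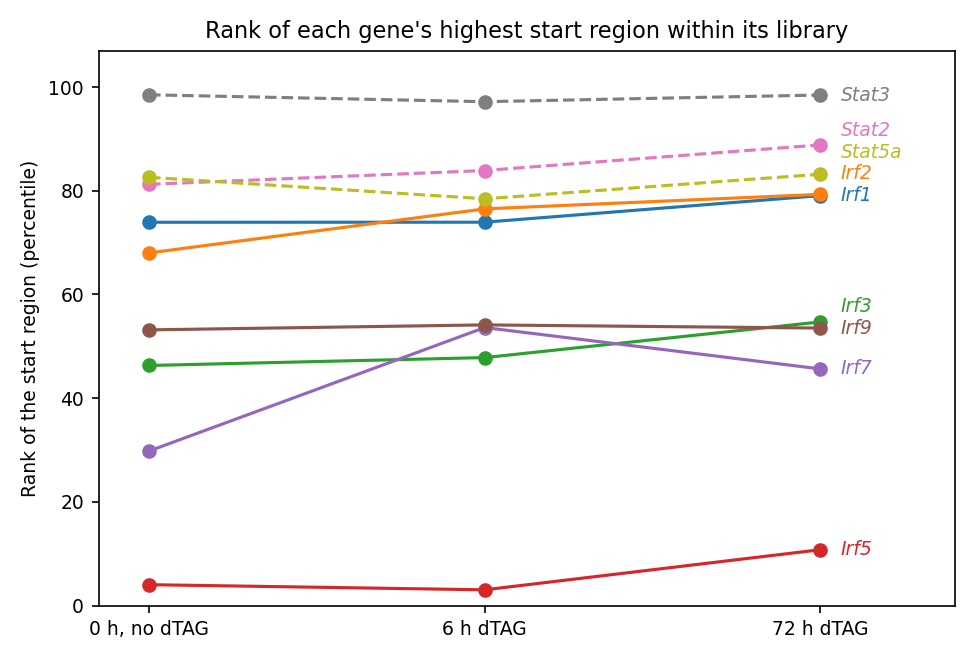
Rank of the highest start region of each gene at 0 h, 6 h and 72 h among 9881 genes with a start region in all 3 libraries (solid lines IRF genes, dashed lines STAT genes). Stat3 stays near 98, Irf5 lies lowest at 4.05, 3.06 and 10.8, and Irf7 has the largest shift, at 29.8, 53.6 and 45.6. The highest Irf5 start region at 6 h is a different one from that at 0 and 72 h.

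Stat2 and Irf9, whose products act together in the type I interferon response, had open starts at every time, with a difference between 72 h and 0 h in rank among gene starts of 7.61 points for Stat2 and 0.349 for Irf9. Stat2 had a start region with folds of 118, 147 and 181 and ranks among gene starts of 81.2, 83.9 and 88.8. Irf9, which binds DNA in this pair, had folds of 74.8, 87.4 and 91.3 and ranks among gene starts of 53.2, 54.1 and 53.5. A locus at −11.3 kb of Stat2 (chr10:128258926-128259510) had folds of 49.1, 64.8 and 132. Among all shared loci it ranked 86.6, 89.0 and 96.0, where the Stat2 start ranked 97.6, 97.9 and 98.5. Region numbers were 16, 14 and 17 for Stat2 and 11, 14 and 13 for Irf9. In the Irf9 window, 7 of 13 loci lay within 1 kb of the start of another coding gene. The widest shift there, at chr14:55589945-55590341 inside Psme2 and within 1 kb of its start, a gene that encodes a proteasome activator subunit, had folds of 11.3, 12.8 and 73.4 and ranks among shared loci of 42.2, 44.6 and 88.7. The tall region next to it at the starts of Psme2 and Rnf31, with folds of 146, 179 and 203, ranked 99.0, 99.1 and 99.1.

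Irf3, which is activated by phosphorylation in the cytoplasm, shares its start with Bcl2l12, and their starts lie within 1 kb of the same regions. The start region (folds 66.5, 78.4 and 93.7) ranked 46.3, 47.8 and 54.7 among gene starts. A locus near the start (chr7:44998547-44998950) had folds of 20.4, 33.2 and 55.4 and ranks among shared loci of 64.4, 76.4 and 84.0. On the same scale the locus between them, at 0.414 kb, ranked 67.8, 64.4 and 53.7. Regions numbered 19, 18 and 17, and 11 of 25 loci lay at starts of Prmt1, Scaf1 or Rras, the last with a fold of 167 at 0 h. Of these 25, 6 were listed at 0 h only, 7 at 6 h only and 0 at 72 h only, against 14.1%, 11.5% and 10.5% of loci in all coding windows. None of these single-list loci held a strong region, and their folds were low, at 3.02 to 5.29 for 0 h and 3.01 to 6.78 for 6 h.

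Stat3 and Stat5a are neighbours on chromosome 11, and their windows shared 3, 5 and 2 regions at 0, 6 and 72 h. Stat3 had the highest start of the 9, with folds of 184, 204 and 254 and ranks among gene starts of 98.5, 97.2 and 98.5. Before its start, the locus at −8.18 kb (chr11:100947600-100947839) had folds of 41.6, 26.4 and 15.6 and ranks among shared loci of 83.4, 70.3 and 52.1, the third widest downward shift among the 91 loci ranked, after those at 26.9 kb of Irf2 and −11.8 kb of Irf1. On that scale the locus at −12.7 kb ranked 64.4, 68.6 and 73.7. Stat5a had start folds of 121, 133 and 162 and ranks among gene starts of 82.6, 78.5 and 83.2. A locus at −6.46 kb of Stat5a, inside Stat5b, had folds of 6.80, 15.1 and 20.3 and ranks among shared loci of 21.1, 51.1 and 60.3. A locus within 1 kb of a Stat5b start, −9.21 kb from the Stat5a start, had folds of 46.1, 63.3 and 33.6 and ranks among shared loci of 85.4, 88.7 and 73.7. At 72 h another Stat5b start region, of 310 bp, was the highest, so that the highest Stat5b start region had folds of 46.1, 63.3 and 61.7 and ranks among gene starts of 29.8, 37.8 and 36.8. Stat3 held 15, 17 and 13 regions and Stat5a 15, 19 and 13, the highest number at 6 h and the lowest at 72 h for both. The 3, 5 and 2 shared regions enter both counts, so the 2 patterns are not independent. Shared regions listed at 6 h only, at chr11:100877694-100877819 and chr11:100903822-100903890, had folds of 5.27 and were below the strong cutoff. Strong regions of Stat5a numbered 10, 10 and 7.

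Some regions of 0 h were listed in pieces later, which raises a count of regions but not of loci. Of the 134 regions at 0 h in the 9 windows, 14 were overlapped by at least 2 regions at 72 h, or 10.4% (5.83 to 16.9), against 3.46% over all coding windows. Among those of 500 bp or longer, 9 of 18 were split (interval 26.0% to 74.0%), against 41.2%. At 6 h, 5 of the 134 were split, against 2.33%, and 2 of the 18 long ones, against 22.4%. At Irf1 the 1070 bp start region of 0 h became 2 regions of 349 and 550 bp with folds of 149 and 32.0. At Irf3 a start region of 505 bp was overlapped by regions with folds of 81.2 and 93.7.

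The wider pathway was read from 103 genes, some of whose windows overlap. At 72 h, 40 of them exceeded their 0 h number, 49 fell short of it and 14 equalled it, or 38.8% above and 47.6% below, with a median change of 0 against −1 over all coding genes. All counts of genes at 72 h here and in the next paragraph stand against 22.4% with more, 65.7% with fewer and 11.9% with as many over all coding genes. At 6 h, 31 of the 103 held more, 52 fewer and 20 as many, or 30.1% more and 50.5% fewer, against 35.9% and 43.5% over all coding genes. Of 37 interferon targets, 8 held more and 23 fewer at 6 h, or 21.6% and 62.2%, against 35.9% and 43.5%. At 72 h, 12 held more and 21 fewer, or 32.4% and 56.8%, against 22.4% and 65.7%. The lowest difference was that of Irgm1, an immunity-related GTPase, with 28, 21 and 18 regions at 0, 6 and 72 h. Samhd1, which breaks down deoxynucleotides, held 15, 14 and 23. Targets of STAT3 and STAT5 held more in 6 of 9 and fewer in 3, or 66.7% and 33.3%, against 22.4% and 65.7%. The highest difference was that of Mcl1, a survival factor, with 23, 25 and 30, while Id1 held 20, 14 and 11. Among cytokine receptors above STAT3 and STAT5, 3 of 7 held more and 3 fewer, or 42.9% each. Csf2rb, the common beta chain of the GM-CSF receptor, held 22, 29 and 31, and Csf3r, the G-CSF receptor, 21, 17 and 17.

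Sensors and adaptors above IRF3, IRF5 and IRF7 held more regions at 72 h in 8 of 17 and fewer in 6, or 47.1% and 35.3%, against 22.4% and 65.7% over all coding genes. Ticam1, the adaptor of Tlr3 and Tlr4, held 23, 28 and 29, and Tlr9, a DNA sensor, 28, 26 and 16. Interferon receptors and Janus kinases held more in 3 of 10 and fewer in 4, with Jak1 at 20, 21 and 22 and Tyk2 at 26, 26 and 21. Negative regulators held more in 6 of 16 and fewer in 9, with Ptpn2, a phosphatase of Janus kinases and STATs, at 19, 17 and 25 and Pias4 at 42, 27 and 31. Of 7 other family genes, 2 held more and 3 fewer, with Stat6 at 31, 31 and 34 and Stat5b at 27, 31 and 24.

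The label of the line was read against marker genes by their start regions. Of 7 progenitor genes, 6 had one at 0 h, 6 at 6 h and 5 at 72 h; Mpo had none in any list and Kit none at 72 h. Among gene starts, the protease gene Elane ranked 12.1, 8.75 and 3.13 at 0, 6 and 72 h, Ctsg 11.6, 7.41 and 0.719, and Ms4a3 30.4, 27.0 and 12.3, while Cd34 ranked 29.3, 29.0 and 29.4. Prtn3 ranked 4.05, 2.46 and 0.182. The neutrophil genes Cxcr2 and Mmp8 ranked 6.99, 9.68 and 27.8, and 15.5, 30.0 and 34.7, and the macrophage gene Cd68 ranked 39.8, 42.6 and 72.3. Of the 6 ranked neutrophil genes, Camp alone stood lower at 72 h than at 0 h, at 21.4, 27.0 and 18.9. The erythroid gene Klf1 ranked 5.73, 10.6 and 35.4, and the other ranked erythroid gene, Epor, went the other way at 72 h, at 22.9, 27.5 and 15.9. Of 7 neutrophil genes, 6, 7 and 7 had a start region, and of 3 macrophage genes all 3 had one at each time. B cell genes had one in 1 of 3 and erythroid genes in 2 of 3 at each time, and T cell genes in 0, 1 and 1 of 3. Among dendritic genes 2, 3 and 2 of 5 had one, and among mast and basophil genes 1, 2 and 0 of 3. The part of these differences in the results above was not tested, and in a bulk library a change in the share of cells with an open region and a change within cells cannot be told apart.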

How the data were processed

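Each deposited file is the peak list of 1 library. Per the submitters' processing notes, the build was mm10 and the tools included MACS2 2.2.7, BWA 0.7.17, HOMER, bedtools 2.30.0 and FastQC 0.11.8. Not given in the sources used here are their options, duplicate treatment and read shifting. The authors' lists give each peak a fold ratio of summit to background, a −log10 p-value, a −log10 q-value and a score. Each fold is the authors' value for that peak.

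Read totals were not used here. The deposited folds lie on an even grid. If the caller formed them as fragments plus 1 over background plus 1, the lowest listed summit was 3 fragments at each time, so weak regions rest on few fragments, and a locus without a region may hold signal below that level.

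Gene spans and starts came from RefSeq GRCm38.p6 tables, in which 17491 coding genes had a start. Regions were matched by a shared base (1 bp). Strong regions had a −log10 q of at least 7.82, 9.25 and 13.0 at 0, 6 and 72 h. Intervals are exact Clopper-Pearson 95% intervals or, for ratios, follow from the binomial split, and cover counting error only. Counting functions were tested on simulated lists. Python 3.11.15 with pandas 2.3.3 and scipy 1.17.1 was used. All 9 genes are named. Positions are described for the genes with the widest count differences and for loci with the widest shifts, the latter chosen after their values were seen. Each pathway group is shown by its largest increase and decrease. Members and lists were chosen with earlier results of these data known. No test across conditions was possible.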

Additional observations from a re-analysis of the deposited data

How the results depend on the processing

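The ratio of region counts in the 9 windows stayed inside its counting interval in all 16 other settings, between 0.960 and 1.11 for 6 h over 0 h and between 0.949 and 1.30 for 72 h over 0 h; leaving out each gene in turn gave 1.04 to 1.08 and 1.02 to 1.104. The number of genes with a start region was 8 or 9 in each setting. Shares of overlapped regions moved with the threshold. With a fold of at least 10, 88.5% of 0 h regions were overlapped at 6 h, 85.2% at 72 h, and 87.3% of 6 h regions at 0 h. A −log10 q of at least 10 gave 91.8% for 0 h regions at 6 h and 90.5% for 6 h regions at 0 h. Lists of equal length gave 85.2% for 0 h regions at 72 h and 83.8% for 6 h regions at 0 h. When 50% of both regions had to be shared, the shares were 68.7% of 0 h regions at 6 h, 59.7% of them at 72 h, 64.1% of 6 h regions at 0 h and 54.9% of 72 h regions at 0 h. As reported, these shares were 80.6%, 74.6%, 75.4% and 76.4%. Why they moved was not tested. Between 72 h and 0 h the change in regions stayed positive for Irf1 and Irf2 and negative for Stat5a in each of 6 settings, and took either sign, or 0, among settings for the other 6 genes. No paired analysis was possible because each time had 1 library.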

Other observations

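Among the 103 pathway genes, those whose region counts lay closest to the 22, 23 and 30 of Irf2 over the 3 libraries were Mcl1 with 23, 25 and 30 (sum of absolute differences 3), Csf2rb with 22, 29 and 31 (7) and Ticam1 with 23, 28 and 29 (7). The PU.1 core GAGGAAGT, present in 2.44% of promoter windows, and the AP-1 core TGANTCA, present in 6.75%, had no match on either strand in the 250 bases before any start of the 9 genes.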
